A study of Bos taurus with 42 samples.

Results

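The myosin light chain genes described here are 9 of the 22664 genes counted in 42 RNA-Seq libraries from bovine fetuses at day 50 of gestation. They were taken as the rows of the count table whose Ensembl identifiers the study's supplementary tables pair with the symbols MYL1 (ENSBTAG00000009707), MYLPF (ENSBTAG00000021218), MYL3 (ENSBTAG00000008394), MYL2 (ENSBTAG00000018369), MYL6B (ENSBTAG00000031217), MYL4 (ENSBTAG00000021916), MYL7 (ENSBTAG00000002066), MYL9 (ENSBTAG00000011473) and MYL12B (ENSBTAG00000026266). Those tables list genes drawn from these same libraries, so membership is not independent of the values below, and the family members MYL5, MYL6, MYL10 and MYL12A carried no symbol there and were not analysed here. The fetuses came from Angus-cross heifers inseminated with semen of a single sire, 7 fed the control diet (CON, 100% of requirements) and 7 restricted to 60% of the CON intake (RES), from breeding to day 50. Cerebrum, liver and muscle of the left hind limb were sampled from each fetus, which gave 7 CON and 7 RES libraries per tissue. Female fetuses numbered 1 under CON and 2 under RES, and the rest were male. Total counts per library ranged from 4145093 to 7576159 in cerebrum (median 5322766), from 6658218 to 12741299 in liver (median 8130073) and from 5384018 to 7592149 in muscle (median 6644025). Libraries are named by diet and fetus number (RES 1 is fetus 1 of the RES group).

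Myosin is a motor built on a pair of heavy chains, and the neck of each heavy chain holds an essential and a regulatory light chain. The light chains stiffen the neck that swings during a power stroke, and the regulatory chain is the target of myosin light chain kinase and of myosin phosphatase. In striated muscle the chains come in sets: MYL1 (essential) and MYLPF (regulatory) belong to fast skeletal fibres, MYL3 (essential) and MYL2 (regulatory) to slow fibres and the heart ventricle, and MYL4 (essential) and MYL7 (regulatory) to the atrium, MYL4 being in addition an embryonic skeletal form. MYL6B is an essential chain of slow and non-muscle myosin, MYL9 a regulatory chain of smooth muscle and non-muscle myosin, and MYL12B a regulatory chain of non-muscle myosin found in most cells. MYL12A and MYL12B, and likewise MYL6 and MYL6B, are close copies that neighbour each other in the genome, so the split of reads between them is uncertain for MYL12B and MYL6B.

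Which light chains marked muscle among the 3 tissues was examined first, with levels in CPM (a gene's counts per 1000000 counts of the library, after normalization) set over all 42 libraries. In bulk tissue a difference in the number of cells of a type and a difference in RNA per cell cannot be told apart. In muscle, 8 of the 9 genes were higher than in cerebrum and 8 were higher than in liver at an adjusted p under 0.05, by edgeR's quasi-likelihood test with Benjamini-Hochberg adjustment over 15972 genes. MYL1, MYLPF, MYL3, MYL2 and MYL7 passed the low-count filter (which removed genes under 1 CPM in at least 80% of libraries) only through muscle. Their part in these counts and their p-values against muscle are therefore no support for a difference, and their levels are given below. Of all genes tested, 32.2% were called higher in muscle than in cerebrum and 35.9% lower, and 45.5% were called higher in muscle than in liver and 36.6% lower. The median log2 difference of the 9 genes was 6.71 against cerebrum, beside −0.06 for all genes, and 7.04 against liver, beside 0.21 for all genes. These medians include the genes that passed the filter only through muscle, so they are likewise no support for a difference. The comparisons with liver depend on the scaling. With libraries scaled by total counts alone (unscaled CPM, with no normalization factor), chosen after seeing the data, the median of all genes rose by 1.02 between muscle and liver and by 1.03 between cerebrum and liver, 69.1% of genes were called higher and 16.4% lower in muscle than in liver, and 65.8% were called higher and 19.9% lower in cerebrum than in liver. The skeletal muscle markers MYOG, ACTA1, CKM, MYH3, TNNT3 and DES were all higher in muscle in both comparisons (6 of 6 called) and their summed level within muscle ran from 1352 to 9934 CPM. MYOG, at a median of 0 CPM in cerebrum and in liver, passed the filter only through muscle. The count of 6 is therefore a description and no support for a difference.

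**Figure D1:**
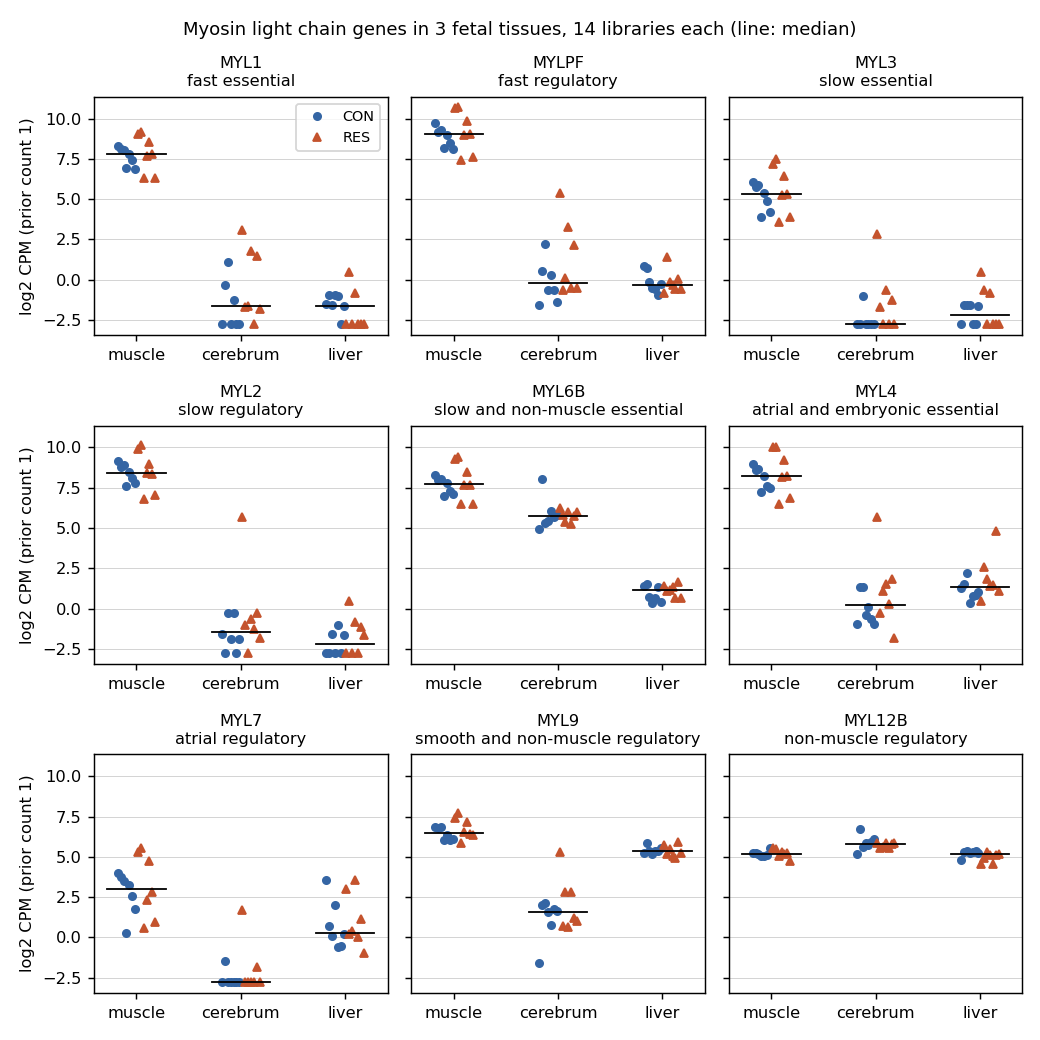
Levels of the 9 light chain genes in muscle, cerebrum and liver, on a log2 CPM scale with a prior count of 1, scaled over all 42 libraries. Each point is a library (circles CON, triangles RES) and each line the median of 14. The fast, slow and atrial or embryonic forms have their highest median in muscle, with a wide spread, and MYL7 in muscle overlaps with liver. MYL6B is high in muscle and cerebrum, and MYL9 in muscle and liver. MYL12B lies at a like height in muscle and liver and somewhat higher in cerebrum under this scaling.

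The fast pair was high in muscle and low elsewhere, with the cerebrum library RES 1 (66 counts of MYL1 and 325 of MYLPF) the highest outside muscle. MYL1 measured 253 ± 152 CPM in muscle (SD, n = 14), 1.25 ± 2.30 CPM in cerebrum and 0.238 ± 0.332 CPM in liver. The log2 difference was 7.75 ± 0.52 (SE) between muscle and cerebrum (adjusted p = 7.01e-17) and 10.04 ± 0.63 between muscle and liver (adjusted p = 1.36e-18). MYLPF measured 648 ± 472 CPM in muscle, 4.66 ± 10.7 CPM in cerebrum and 0.879 ± 0.599 CPM in liver. No muscle library overlapped a library of either other tissue for MYLPF, nor for MYL1, MYL2, MYL3 and MYL4. The share of all genes without such overlap was not counted. The log2 differences of MYLPF were 7.45 ± 0.58 against cerebrum (adjusted p = 6.5e-15) and 9.52 ± 0.66 against liver (adjusted p = 4.5e-17). MYL1 and MYLPF passed the filter only through muscle, so these p-values are no support for a difference.

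The slow pair followed the same order. MYL2 measured 433 ± 299 CPM in muscle, 3.84 ± 13.3 CPM in cerebrum and 0.203 ± 0.333 CPM in liver, where 7 of the 14 libraries held no count of it. MYL3 measured 56.8 ± 49.2 CPM in muscle, 0.593 ± 1.86 CPM in cerebrum and 0.207 ± 0.341 CPM in liver. Both were higher in muscle than in either other tissue, MYL2 by 7.49 ± 0.71 against cerebrum and 11.23 ± 0.91 against liver on the log2 scale, and MYL3 by 6.71 ± 0.56 and 8.39 ± 0.67 (adjusted p at most 2.16e-12 in these 4 comparisons). Both genes passed the filter only through muscle, so these p-values are no support for a difference. The differences from liver rest on a handful of liver counts and their size is accordingly loose. Those from cerebrum depend on the cerebrum library RES 1, described further down: without it they were 10.44 ± 0.43 for MYL2 and 8.96 ± 0.51 for MYL3.

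The atrial and embryonic forms were also higher in muscle than in either other tissue. MYL4 measured 398 ± 306 CPM in muscle, 4.85 ± 13.2 CPM in cerebrum and 4.34 ± 6.76 CPM in liver, with log2 differences of 6.79 ± 0.64 and 6.64 ± 0.64 (adjusted p = 1.86e-12 and 1.47e-12). MYL7 measured 13.5 ± 14.6 CPM in muscle, 0.25 ± 0.835 CPM in cerebrum and 3.25 ± 4.14 CPM in liver, so that muscle exceeded liver by 2.06 ± 0.55 on the log2 scale (adjusted p = 0.000837) and the ranges of the 2 tissues overlapped. MYL7 exceeded cerebrum by 5.65 ± 0.71 (adjusted p = 3.44e-09). It passed the filter only through muscle, so its p-values are no support for a difference. In cerebrum, 11 of the 14 libraries held no MYL7 count. Without the cerebrum library RES 1 the log2 differences between muscle and cerebrum were 8.30 ± 0.51 for MYL4 and 8.24 ± 0.84 for MYL7. A floor of 3 counts corresponds to between 0.396 and 0.724 CPM in a cerebrum library before scaling.

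The remaining 3 genes were each found outside muscle as well. MYL6B measured 265 ± 182 CPM in muscle, 67.1 ± 57.7 CPM in cerebrum and 1.96 ± 0.615 CPM in liver, and each step in that order passed the test (muscle over cerebrum 1.94 ± 0.28, cerebrum over liver 5.10 ± 0.35 on the log2 scale, adjusted p = 9.83e-08 and 3.13e-17). MYL9 ran in the order muscle, liver, cerebrum, at 106 ± 45.0, 42.7 ± 9.38 and 5.72 ± 10.1 CPM, with muscle above liver by 1.22 ± 0.32 (adjusted p = 0.000694) and cerebrum below liver (log2 difference −3.12 ± 0.36, adjusted p = 2.02e-10). MYL12B was the only member lower in muscle than in cerebrum: it measured 57.3 ± 15.7 CPM in cerebrum, 37.5 ± 5.61 CPM in muscle and 34.9 ± 6.26 CPM in liver. The log2 difference of MYL12B between muscle and cerebrum was −0.61 ± 0.11 (adjusted p = 7.38e-06), and between muscle and liver 0.11 ± 0.11 (adjusted p = 0.373), which did not pass. Scaled by total counts alone, the latter was 1.12 (adjusted p = 6.11e-08), beside 1.23 for the median of all genes.

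Between cerebrum and liver, where 45.2% of all genes were called higher in cerebrum and 38.5% lower, 5 members were called higher in cerebrum (MYL1, MYLPF, MYL2, MYL6B and MYL12B) and 2 lower (MYL7, at −3.59 ± 0.74, adjusted p = 2.61e-05, and MYL9). MYL3 and MYL4 did not pass (log2 differences 1.69 ± 0.91 and −0.15 ± 0.60, adjusted p = 0.0826 and 0.823). Scaled by total counts alone these were 2.69 (adjusted p = 0.00166) and 0.72 (adjusted p = 0.259), beside 1.199 for the median of all genes. These calls rested in part on the cerebrum library RES 1, described further down. Without it, MYL1, MYLPF and MYL2 no longer passed (adjusted p = 0.0752, 0.0795 and 0.549), MYL3 had a log2 difference of −0.67 (adjusted p = 0.514), and MYL4 was lower in cerebrum, at −1.69 ± 0.49 (adjusted p = 0.00182). The differences of the members already lower in cerebrum widened to −6.20 ± 0.92 for MYL7 and −3.87 ± 0.25 for MYL9 (adjusted p = 6.52e-08 and 3.67e-18). Muscle against cerebrum again gave 9 calls and muscle against liver 8 without that library, and for MYL1, MYLPF and MYL9 the log2 differences between muscle and cerebrum were then 8.49, 8.44 and 5.11.

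Most filament partners of the light chains were also higher in muscle. The filament genes named here come from lists chosen with earlier results of these data known, and only genes with a symbol could be matched. Of the sarcomeric heavy chains, MYH3 (the embryonic form), MYH7 (the slow form) and MYH15 were matched and all 3 were higher in muscle than in both other tissues. MYH14, a non-muscle heavy chain and the only one of its list matched, was lower in muscle than in cerebrum (log2 difference −0.77, adjusted p = 0.0188) and than in liver (−2.93, adjusted p = 4.4e-12). Of the thin filament genes (actins, troponins and tropomyosins) 11 of 11 matched, and of thick filament and Z disc partners 7 of 7 matched, were called higher in muscle in both comparisons. Of all genes, 32.2% were called higher in muscle than in cerebrum and 45.5% higher than in liver. Some genes of these lists, such as MYH15 and MYBPH, passed the filter only through muscle, so these counts are no support for a difference. The 6 matched genes that act on regulatory light chains (RHOA and ROCK1, which restrain myosin phosphatase, the phosphatase subunits PPP1CB and PPP1R12B, and others) had no such pattern: 1 was higher and 3 lower in muscle than in cerebrum, and likewise 1 and 3 against liver.

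The effect of maternal restriction was then compared within muscle, with CPM scaled over the 14 muscle libraries. By diet, 0 of the 9 light chain genes passed an adjusted p of 0.05 (lowest adjusted p = 0.553, for MYL9, edgeR quasi-likelihood test with sex as a covariate), and the same held for all 14947 genes tested (0% called). At an unadjusted p under 0.05, 0 of the 9 members and 9.91% of all genes passed. DESeq2's Wald test called 13 genes in muscle, none of them a light chain, but it gave no adjusted p for 8426 genes, MYL7 among them. The estimates of all 9 members lay above 0, with a median log2 fold change of 0.59, beside −0.01 for all genes. Of the 14947 genes, 7191 had an estimate above 0. The members other than MYL12B moved closely together from fetus to fetus, so the 9 signs are not independent. For MYL1, MYL2, MYL3, MYL4, MYL6B and MYL7 the RES median CPM lay below the CON median. The RES libraries covered a wider range than the CON libraries for each of the 9 genes.

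**Figure D2:**
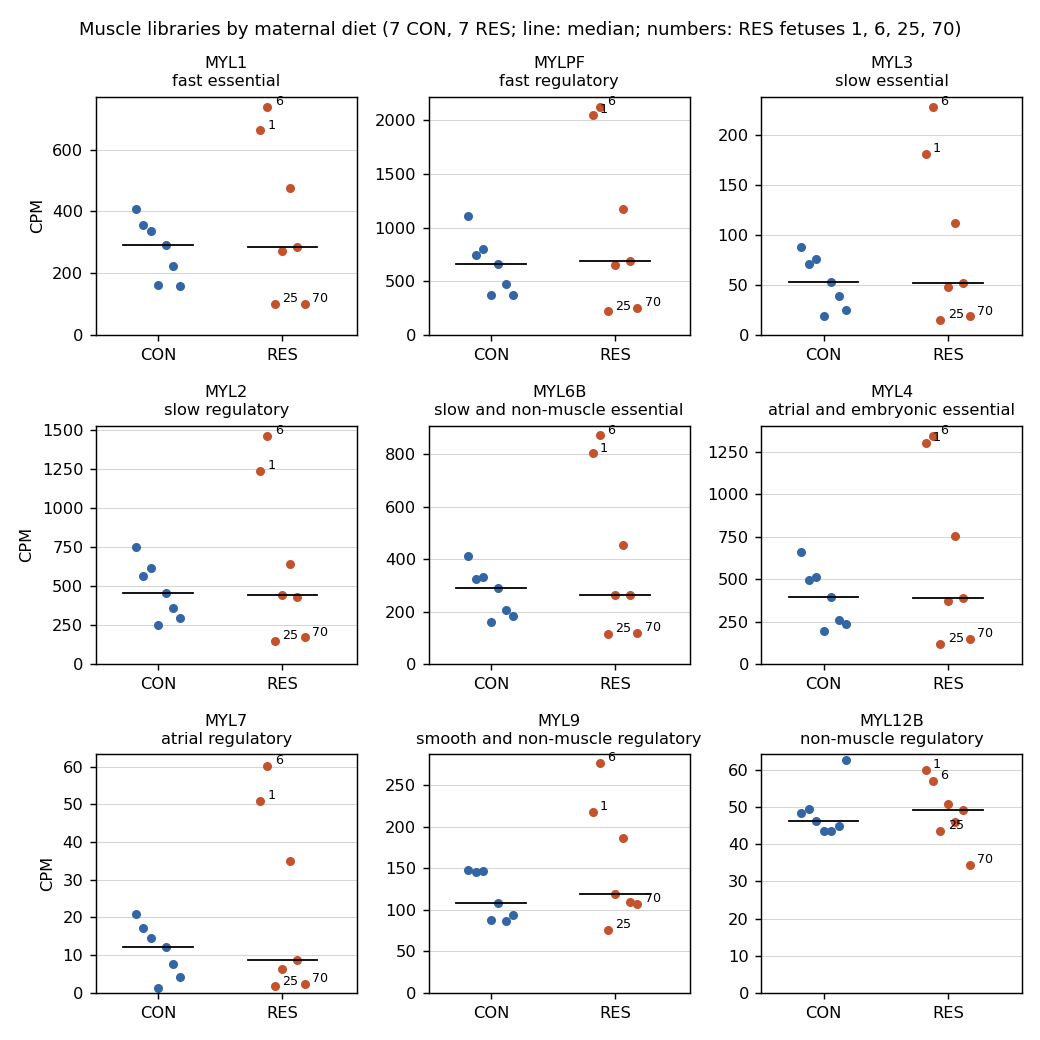
CPM of each light chain gene in the 7 CON and 7 RES muscle libraries, with the median as a line and 4 RES fetuses numbered. RES 1 and RES 6 lie highest for every gene but MYL12B, RES 25 lies lowest or next to lowest for 8 of the 9, and the medians of the diets lie close together for all but MYL7.

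For the fast pair, the medians of the diets were close and the RES range was the wider. MYL1 ran from 159 to 406 CPM in CON (median 291) and from 101 to 739 CPM in RES (median 284). RES 1 and RES 6, at 662 and 739 CPM, lay above every CON library, and RES 25 and RES 70, at 100.8 and 101.2 CPM, below every one. The log2 fold change (RES over CON) was 0.44 ± 0.40 (SE, adjusted p = 0.695). MYLPF ran from 372 to 1110 CPM in CON (median 665) and from 220 to 2123 CPM in RES (median 687). Again RES 1 (2051 CPM) and RES 6 lay above the CON range and RES 25 and RES 70 (251 CPM) below it. Its log2 fold change was 0.64 ± 0.45 (adjusted p = 0.626).

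The slow pair placed the same fetuses at the ends. MYL2 ran from 249 to 747 CPM in CON (median 454) and from 148 to 1462 CPM in RES (median 442), a log2 fold change of 0.46 ± 0.44 (adjusted p = 0.71). MYL3 ran from 19 to 87.8 CPM in CON (median 53.3) and from 15.3 to 227 CPM in RES (median 51.8), a log2 fold change of 0.80 ± 0.53 (adjusted p = 0.613). The highest MYL3 level was 4.62 times the lowest among CON fetuses and 14.9 times the lowest among RES fetuses. MYL6B, which joins the slow heavy chain in muscle, ran from 162 to 410 CPM in CON (median 288) and from 116 to 871 CPM in RES (median 264), a log2 fold change of 0.59 ± 0.41 (adjusted p = 0.625).

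MYL7 varied more between fetuses than the other members. It ran from 1.38 CPM (8 counts, CON 54) to 20.9 CPM in CON, with a median of 12.2, and from 1.73 CPM (12 counts, RES 25) to 60.3 CPM (414 counts, RES 6) in RES, with a median of 8.82. The group means were 11.2 ± 7.06 and 23.6 ± 24.7 CPM (SD, n = 7), and the log2 fold change was 0.99 ± 0.71 (adjusted p = 0.636). The RES mean lay above the CON mean while the RES median lay below the CON median. MYL4, the embryonic essential chain, ran from 193 to 658 CPM in CON (median 397) and from 118 to 1345 CPM in RES (median 389), with a log2 fold change of 0.67 ± 0.48 (adjusted p = 0.634).

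The smooth and non-muscle forms varied least. MYL9 ran from 87.2 to 148 CPM in CON (median 108) and from 76.3 to 277 CPM in RES (median 119), and it had the lowest unadjusted p of the 9, with a log2 fold change of 0.46 ± 0.25 (adjusted p = 0.553). MYL12B ran from 43.5 to 62.8 CPM in CON (median 46.2) and from 34.5 to 60 CPM in RES (median 49.3), and the CON and RES means were 48.4 ± 6.71 and 48.8 ± 8.53 CPM. Its log2 fold change was 0.04 ± 0.11 (adjusted p = 0.909). In muscle the SD of log2 CPM within a diet was 0.18 in CON and 0.26 in RES for MYL12B, against 1.33 and 2.06 for MYL7.

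Because RES 1 and RES 6 held the 2 highest values of 8 members, each fetus was left out in turn. Without RES 6 the log2 fold change dropped to 0.22 for MYL1, 0.16 for MYL2, 0.46 for MYL3, 0.40 for MYLPF, 0.41 for MYL4, 0.33 for MYL6B, 0.62 for MYL7 and 0.27 for MYL9. Without CON 68, the only female CON fetus, they were 0.72 for MYL1, 0.74 for MYL2, 1.15 for MYL3, 0.95 for MYLPF, 0.995 for MYL4, 0.90 for MYL6B, 1.49 for MYL7 and 0.58 for MYL9 (adjusted p from 0.42 to 0.512). Without RES 1 that of MYL12B was −0.010, and in none of the 14 fits was any member called. The difference in spread between the diets is given as a description and was not tested.

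The 8 members other than MYL12B moved closely together from fetus to fetus. Over the 14 muscle libraries, Pearson's r of log2 CPM among the 8 genes without MYL12B lay between 0.895 (MYL1 with MYL9) and 0.996 (MYLPF with MYL4) in all 28 pairs, and Spearman's rho between 0.912 and 1 (permutation test with 100000 resamples, Benjamini-Hochberg adjusted over 36 pairs, adjusted p = 1.29e-05 for every r, the smallest these resamples can give). Without the 2 libraries farthest from the median of the first gene of a pair, r stayed between 0.84 and 0.995. Within CON (n = 7) r lay between 0.817 and 0.998, and within RES (n = 7) between 0.92 and 0.999. All points share their library and its make-up of cells.

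MYL12B was less closely tied to the other 8. Its r with them was between 0.443 and 0.607, and 5 of the 8 pairs passed (adjusted p from 0.0265 to 0.114 by the same permutation test), but none did by Spearman's rho, which lay between 0.468 and 0.534 (adjusted p from 0.0652 to 0.0943). Without the 2 farthest libraries r was between 0.079 and 0.541 and none of the 8 pairs reached an unadjusted p of 0.05. Within CON the 8 values of r were all below 0, from −0.288 to −0.029, and within RES all above it, from 0.656 to 0.858 (n = 7 each). The values below 0 rested on the library CON 73, described further down. Without it, a choice made after seeing the data, r with MYL12B was between 0.692 and 0.811 in the other 6 CON libraries and between 0.671 and 0.836 over 13 libraries, and all 36 pairs of members passed. The difference between the diets in r was not tested.

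**Figure D3:**
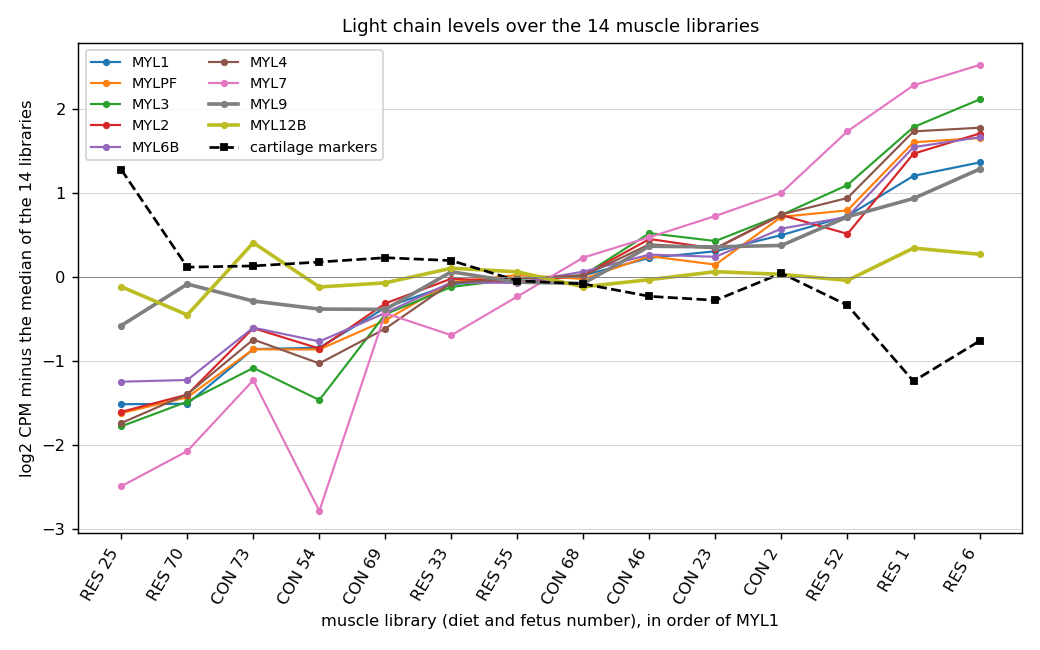
Log2 CPM of the 9 light chain genes in the 14 muscle libraries, each gene centred on its own median, with libraries in order of MYL1 and the summed level of 3 cartilage markers as a dashed line. The other 8 genes climb together, MYL7 most steeply and MYL9 least, MYL12B stays level, and the cartilage markers run downward from RES 25.

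The slope of log2 CPM on that of MYL1, given as a description, was 0.14 for MYL12B, 0.54 for MYL9, 0.98 for MYL6B, 1.06 for MYL2, 1.11 for MYLPF, 1.19 for MYL4, 1.33 for MYL3 and 1.81 for MYL7. The genes most like each member over the 14 muscle libraries, among the other 4679 genes with a symbol, are given as a description. MYL1 was closest to TNNT3 (fast troponin T, r = 0.994), HJV (a bone morphogenetic protein co-receptor of muscle and liver, r = 0.993) and MYLPF. MYLPF was closest to TNNC2 (fast troponin C), DES (desmin) and MYL4 (r from 0.996 to 0.997). MYL2 was closest to CSRP3 (a muscle LIM protein, r = 0.994), ACTA1 (skeletal alpha actin) and SRPK3 (a muscle protein kinase, both r = 0.991), and MYL3 to TPM2 (beta tropomyosin, r = 0.993), MYL4 and TNNC2. MYL6B was closest to TNNC2, TNNC1 (slow and cardiac troponin C) and TPM2 (r from 0.995 to 0.996), MYL4 to MYLPF, TNNC2 and MYL6B, and MYL7 to MYL3 (r = 0.983), ACTA1 and TNNI2 (fast troponin I).

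MYL9 was closest to ACTA2, the smooth muscle alpha actin (r = 0.964), then to COX8B (a muscle form of a cytochrome c oxidase subunit, r = 0.948) and TPM2 (r = 0.943), which was also among the closest to MYL3 and MYL6B. MYL12B was closest to DPP3 (a dipeptidyl peptidase, r = 0.921), LYRM4 (iron-sulfur cluster assembly, r = 0.909) and ACSS2 (an acetyl-CoA synthetase, r = 0.895), none of them a contractile gene. These are the closest of 4679 genes, so that high values were bound to be found.

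The make-up of the muscle libraries moved with the light chains. The 6 striated forms (MYL1, MYLPF, MYL3, MYL2, MYL4 and MYL7) summed to 5488 and 5956 CPM in RES 1 and RES 6, and to 603 and 693 CPM in RES 25 and RES 70. In the same order of libraries the 6 skeletal muscle markers, of which MYH3 gave the most counts, summed to 8506, 9934, 1352 and 1531 CPM. The 3 matched cartilage markers of 4 (COL9A1, ACAN and SOX9, with COL9A1 giving the most counts and none at 0) summed to 45.4, 63.6, 264 and 118 CPM there, and to between 89.4 and 127 CPM in CON. Over the 14 libraries r with MYL1, on the log2 scale and as a description, was 0.989 for the summed skeletal markers, which hold genes of the same fibres, −0.831 for cartilage and 0.648 for the 7 matched smooth muscle and pericyte markers. A single heart marker was matched (TBX5, also a limb gene), at 6.11 to 37.5 CPM, with r = −0.629. The r was −0.50 for the summed liver markers, −0.065 for the red cell genes and 0.02 for the neuronal markers. The part of tissue make-up in the diet estimates was not tested.

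Another muscle library had markers of a different tissue. CON 73 held 203 CPM of the 4 matched neuronal markers, beside 2.88 to 38.8 CPM in the other 13, with ELAVL4 (a neuronal RNA-binding protein) at 181 CPM and DCX at 20.1 CPM. The same library had the highest MYL12B level in muscle (62.8 CPM). Without it the log2 fold change of MYL12B was 0.11 and the gene was still not called. Whether the neuronal RNA bears on that MYL12B level was not tested.

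The list genes compared between diets in muscle also gave no call. Of all 14947 genes, 7191 had an estimate above 0. The summed sarcomeric heavy chain, thin filament, and thick filament and Z disc lists followed MYL1 over the 14 libraries (r from 0.975 to 0.984). The signs of their genes are therefore not independent of each other. All 3 matched sarcomeric heavy chains had estimates above 0, with MYH3 at 2563 ± 727 CPM in CON and 3337 ± 2064 CPM in RES (log2 fold change 0.39 ± 0.36, adjusted p = 0.706) and MYH7 at 293 ± 83.9 and 373 ± 247 CPM (0.37 ± 0.35, adjusted p = 0.708). Of the thin filament list, 11 of 11 estimates were above 0 with a median of 0.57, and TPM1 alone reached an unadjusted p under 0.05 (807 ± 63.5 CPM in CON, 965 ± 177 CPM in RES, log2 fold change 0.27 ± 0.11, adjusted p = 0.48). ACTC1, the cardiac actin that embryonic skeletal muscle uses, had 2089 ± 708 and 2701 ± 1915 CPM (0.38 ± 0.42, adjusted p = 0.751). All 7 matched thick filament and Z disc partners had estimates above 0 (median 0.27), among them MYBPC1, a myosin-binding protein (0.22 ± 0.34, adjusted p = 0.829). The myogenic factors, 7 matched of 11, had 5 estimates above 0 and 2 below, with MYOG at 0.57 ± 0.44 (adjusted p = 0.657) and MYOD1 at 0.52 ± 0.38 (adjusted p = 0.643).

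Among the genes that act on regulatory light chains, RHOA, PPP1CB and ROCK1 stayed within a narrow range in muscle and gave most of the counts of the list. PPP1R12B, a targeting subunit of the phosphatase, ran from 15.6 to 27.9 CPM, MYLK3, a light chain kinase, from 2.13 to 7.38 CPM, and PPP1R14A, a phosphatase inhibitor, from 3.99 to 23.2 CPM. RHOA had 385 ± 22 CPM in CON and 366 ± 32.9 CPM in RES (log2 fold change −0.04 ± 0.05, adjusted p = 0.776), PPP1CB, the catalytic subunit of myosin phosphatase, 303 ± 31.5 and 315 ± 21.5 CPM (0.06 ± 0.07, adjusted p = 0.787), and ROCK1 98.7 ± 8.05 and 100.1 ± 9.55 CPM (0.00 ± 0.07, adjusted p = 0.996).

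To compare the balance of forms, 4 ratios of counts were taken in each muscle library. A ratio of members whose slopes on MYL1 differ moves with the level of MYL1 itself, as for MYL3/MYL1, MYL4/MYL1 and MYL9/MYL12B. A ratio also carries the lengths of both transcripts, so only its difference between libraries has meaning. The ratio of slow to fast regulatory chain, MYL2/MYLPF, had a log2 value of −0.46 ± 0.10 in CON and −0.64 ± 0.12 in RES (SD, n = 7). In CON the lowest value was −0.58 and the highest −0.34, and in RES the lowest was −0.87 (RES 52) and the highest −0.54 (RES 6), so that the groups overlapped between −0.58 and −0.54. The difference (RES minus CON) was −0.18, with p = 0.0157 by a two-sided exact permutation test over the 3432 splits, and an adjusted p of 0.0629 over the 4 ratios, which did not pass 0.05. It was below 0 without any 1 fetus, at −0.20 to −0.14 (adjusted p from 0.0396 without CON 54 and 0.049 without CON 2 to 0.135 without CON 73).

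The other ratios differed by less than their spread. The slow to fast essential ratio, MYL3/MYL1, had a log2 value of −2.49 ± 0.31 in CON and −2.25 ± 0.37 in RES, with a difference of 0.24 (exact permutation p = 0.213, adjusted p = 0.279). Its estimate lay in the direction opposite to that of the regulatory pair. The embryonic to fast essential ratio, MYL4/MYL1, had 0.47 ± 0.18 and 0.60 ± 0.26 (difference 0.14, exact permutation p = 0.279, adjusted p = 0.279), and MYL9/MYL12B 1.24 ± 0.41 and 1.57 ± 0.53 (difference 0.33, exact permutation p = 0.216, adjusted p = 0.279). In these 3 ratios RES 1 and RES 6 held the 2 highest values, except that RES 52 stood between them for MYL9/MYL12B.

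**Figure D4:**
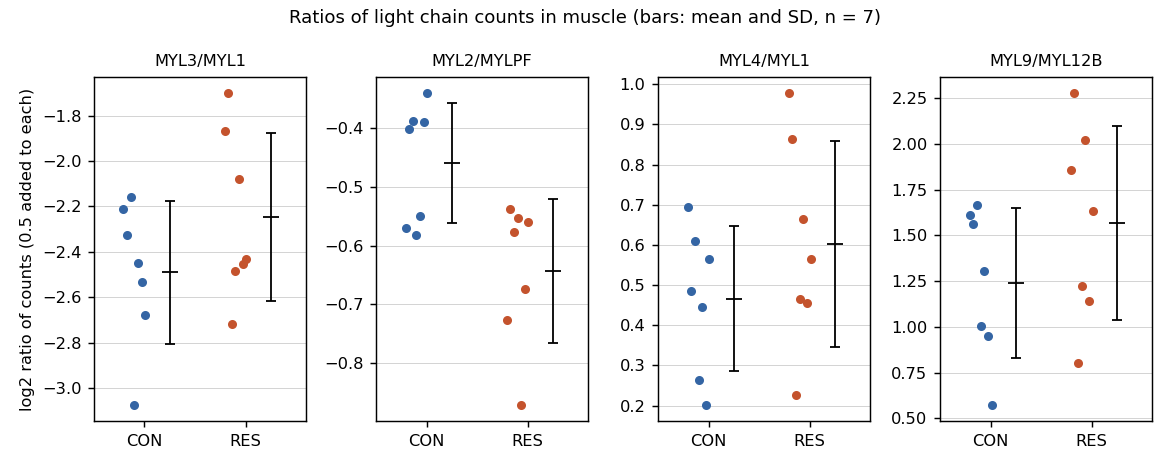
Log2 ratios of light chain counts in the 7 CON and 7 RES muscle libraries, with the mean and SD beside the points and 0.5 added to each count. The RES values of MYL2/MYLPF lie lower with a narrow overlap, and the other 3 ratios overlap over most of their range.

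In cerebrum 6 members passed the filter on low counts (MYL1, MYLPF, MYL6B, MYL4, MYL9 and MYL12B). None was called between diets (adjusted p = 0.999 for each, edgeR quasi-likelihood test) and nor was any of the 15151 genes tested (0%). At an unadjusted p under 0.05, 4 members passed, all with RES above CON, beside 2.55% of all genes: MYL4 (log2 fold change 2.98 ± 1.01, unadjusted p = 0.00933), MYLPF (2.78 ± 1.01, unadjusted p = 0.0143), MYL9 (1.67 ± 0.69, unadjusted p = 0.0268) and MYL1 (2.48 ± 1.16, unadjusted p = 0.049). MYL1 and MYLPF passed the filter through the RES libraries (3 and 4 of them reached 1 unscaled CPM, beside 1 and 2 in CON), so their part in that count supports no difference. These estimates came largely from 1 library. In the cerebrum of RES 1, MYL4 stood at 64.8 CPM, where the other 13 libraries ran up to 4.44 CPM, and MYLPF at 52.5 CPM, where the next was 12.2 CPM (RES 33). MYL9 stood at 51.7 CPM beside at most 8.87 CPM elsewhere, and MYL1 at 10.7 CPM beside at most 4.21 CPM. MYL2 (64.5 CPM, 399 counts), MYL3 (9.05 CPM, 56 counts) and MYL7 (4.04 CPM, 25 counts), which did not pass the filter, had at most 5, 3 and 1 counts in any other cerebrum library.

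Without RES 1 the log2 fold changes were 0.67 for MYL4 (unadjusted p = 0.321), 1.25 for MYLPF (unadjusted p = 0.158), 0.47 for MYL9 (unadjusted p = 0.355) and 1.35 for MYL1 (unadjusted p = 0.257), in the same edgeR test. Without CON 46 instead they were 3.23 for MYL4, 3.58 for MYLPF, 1.75 for MYL9 and 3.89 for MYL1, and again none was called. The cerebrum library of RES 1 stood apart in the marker lists too. Its 6 skeletal muscle markers summed to 166 CPM, with MYH3 at 92.6 CPM, DES at 35.7 CPM, TNNT3 at 19.4 CPM and MYOG at 7.92 CPM, beside 5.65 to 19.2 CPM in the other 13 libraries. CKM, a marker of more mature muscle, was at 4 counts. The 7 matched smooth muscle and pericyte markers summed to 338 CPM (49.5 to 126 CPM elsewhere), the cartilage markers to 120 CPM (11.8 to 46 CPM elsewhere) and the 4 matched red cell genes to 338 CPM (6.84 to 109 CPM elsewhere). Of the cartilage markers COL9A1 and ACAN were at their highest, at 109 and 7.27 CPM. SOX9, at 3.07 CPM, was the lowest of the 14, and ranked 13 by unscaled CPM. TTR, made by liver and by the choroid plexus, was at 7234 CPM. The liver gene ALB, at 92 CPM, was also at its highest of the 14, and AFP was at 121 CPM. In RES 33 ALB was at 55.2 CPM and AFP at 100 CPM, and by unscaled CPM its AFP (106.7) was above that of RES 1 (99.1). The 4 matched neuronal markers of RES 1 summed to 186 CPM, the lowest of the 14. Their part in the light chain levels was not tested.

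**Figure D5:**
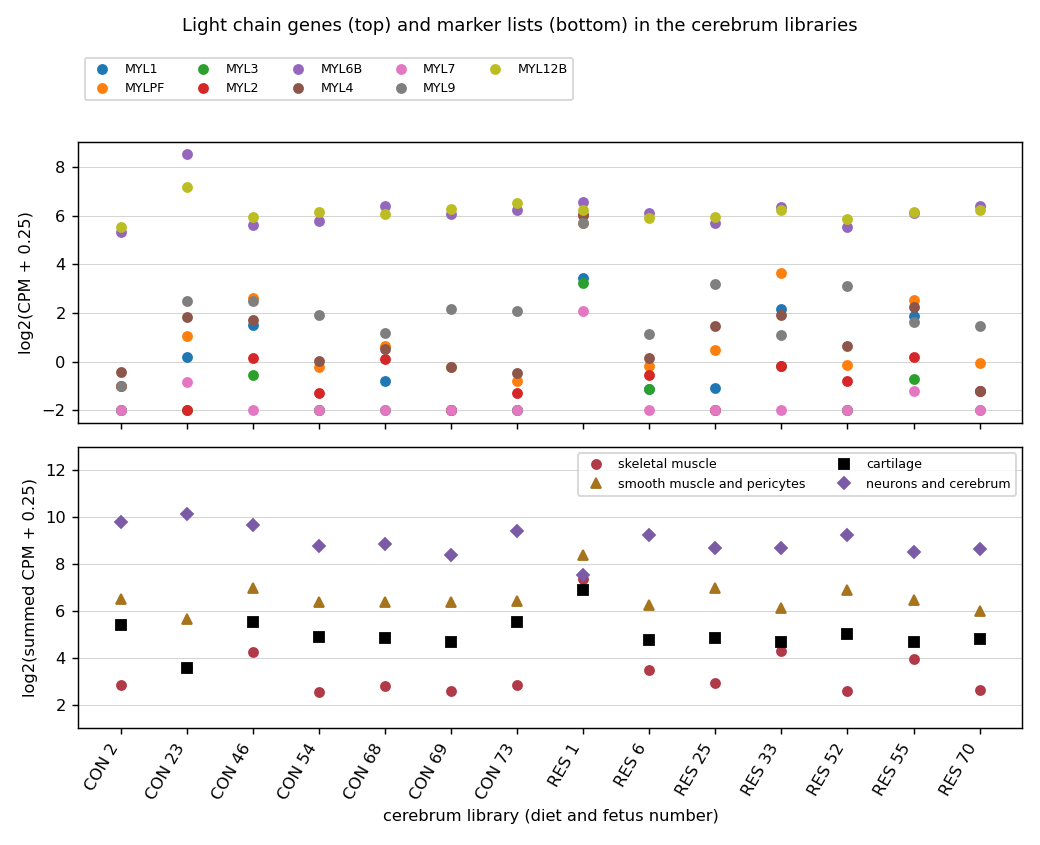
Light chain genes (top) and summed marker lists (bottom) in the 14 cerebrum libraries, on log2 scales with 0.25 CPM added so that 0 counts show at −2. In RES 1 the 7 other forms are at their highest of the 14 libraries, skeletal, smooth muscle and cartilage markers are highest, and neuronal markers are lowest.

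MYL6B and MYL12B, the forms common to neural tissue, were level across most cerebrum libraries. MYL6B ran from 39.7 to 368 CPM in CON (median 66.2) and from 45.6 to 95.7 CPM in RES (median 69.8), and the value of 368 CPM belonged to CON 23, where the next CON library had 83.9 CPM. The log2 fold change of MYL6B was −0.55 ± 0.45 (adjusted p = 0.999), and 0.21 without CON 23. The scaling factor of CON 23 was 0.531, so its normalized CPM lie well above its unscaled CPM. MYL6B was still highest there at 196 unscaled CPM. MYL12B was at 147 CPM in CON 23, beside 46.8 to 90.7 CPM in the other CON libraries and 58.4 to 76.1 CPM in RES (log2 fold change −0.23 ± 0.22, and −0.02 without CON 23), but at 78 unscaled CPM it was the fifth of the 14, below CON 73 at 94.7. In CON 23 the light chain kinase and phosphatase list summed to 1410 CPM and the 4 neuronal markers to 1129 CPM, the highest of the cerebrum libraries by normalized CPM but not by unscaled CPM (749 and 599.9). ELAVL4, which gave most of the counts in the neuronal sum, was highest in CON 23 by both. Other markers of that list were not: NEUROD6 ranked 4 by normalized and 6 by unscaled CPM, and DCX (6.64 CPM) ranked 13 of the 14 by both. Their part in these levels was not tested.

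In liver 5 members passed the filter (MYL6B, MYL4, MYL7, MYL9 and MYL12B), and MYL1, MYLPF, MYL3 and MYL2 did not, with at most 10 counts in any library. None of the 5 was called, nor any of the 13527 genes tested (0%), while 24.1% of all genes and 0 of the 5 members had an unadjusted p under 0.05. DESeq2's Wald test called 86 genes in liver and none of the light chains. MYL9 ran from 21.2 to 34.3 CPM in CON (median 25) and from 18.5 to 36 CPM in RES (median 23.3), with a log2 fold change of −0.08 ± 0.17 (adjusted p = 0.782). MYL12B ran from 16.6 to 25.1 CPM in CON (median 23.5) and from 14.2 to 23.5 CPM in RES (median 20), and had the lowest p of the 5 (log2 fold change −0.30 ± 0.15, unadjusted p = 0.0615, adjusted p = 0.219).

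The atrial forms were uneven in liver. MYL4 ran from 0.651 to 2.73 CPM in CON and from 0.75 to 16.2 CPM in RES, where RES 55 alone (184 counts) stood above 3.45 CPM. Its log2 fold change was 0.89 ± 0.59 (adjusted p = 0.321) and it was 0.42 without RES 55 and 0.43 without CON 68. Without the sex covariate it was 1.54 (unadjusted p = 0.023, adjusted p = 0.471). In the liver of RES 55 the skeletal markers MYOG, ACTA1 and CKM and the heart marker TBX5 were at 0, MYH3 and TNNT3 (5.10 and 8.26 CPM) lay within the range of the other liver libraries, and DES was the highest of the 14 (9.14 CPM). ACTC1 (5.36 CPM), TPM1 (315 CPM), the thin filament sum (361 CPM) and the cartilage sum (7.38 CPM) were also the highest. The smooth muscle and pericyte sum, 400 CPM, was next to the highest, and the highest by unscaled CPM. Their part in the MYL4 level was not tested. MYL7 was at 7.03 CPM in CON 2 (57 counts), 6.84 CPM in RES 33 (56 counts) and 4.75 CPM in RES 1, and at or below 2.28 CPM in the other 11 liver libraries. The RES 1 value rests on 19 counts and a scaling factor of 0.314. Its unscaled CPM was 1.49, below CON 54 at 2.66 (21 counts). The log2 fold change of MYL7 was 0.52 ± 0.77 (adjusted p = 0.655), and it was −0.16 without RES 33 and 1.40 without CON 2. MYL6B had 6 to 20 counts per library and a log2 fold change of 0.20 ± 0.31 (adjusted p = 0.674). Scaled by total counts alone, where the median of all genes was −0.37, the liver estimates were −0.66 for MYL12B, −0.51 for MYL9, 0.51 for MYL4, 0.16 for MYL7 and −0.19 for MYL6B, and none was called.

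Whether the diet effect differed among tissues was tested across all 42 libraries with a diet-by-tissue term. No member and no gene of 15972 passed (0%; adjusted p from 0.829 to 0.867 for the members, edgeR quasi-likelihood test), while DESeq2's likelihood ratio test called 2 genes and no member. At an unadjusted p under 0.05 there were 3 members, MYL2 (unadjusted p = 0.00757), MYLPF (unadjusted p = 0.0428) and MYL3 (unadjusted p = 0.0448), beside 5.62% of all genes. Without the cerebrum library of RES 1 these became 0.759, 0.527 and 0.799 and no member was under 0.05. With the fetus as a replicate block they were 0.169, 0.092 and 0.0867.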

How the data were processed

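RNA was measured by strand-specific paired-end sequencing of 42 libraries. Per the labels and methods, the authors checked reads with FastQC 0.11.8, aligned them to ARS-UCD1.2 with STAR 2.7.3a and deposited unnormalized read counts per Ensembl gene. The strand column kept is not given in the sources used here, so overlapping genes may share reads.

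Symbols came from the supplementary tables. Members and gene lists were chosen with earlier results of these data known. Named were all 9 members, the 4 matched genes of each list with the highest mean CPM in its tissue, and the 3 genes most correlated with each member in muscle. CKM, MYLK3 and PPP1R14A were named in addition, after their values were seen. MYL5, MYL6, MYL10 and MYL12A had no match, nor had the vessel lining markers PECAM1 and CDH5, and MYH14 alone of the smooth and non-muscle heavy chains was matched (2.68 CPM in CON and 2.3 CPM in RES muscle). Transcript lengths were not available here, so levels are not compared between genes, and a gene said to give the most counts of a list does so without regard to length.

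Genes under 1 CPM in at least 80% of libraries were left out. Counts were normalized by TMM and tested in edgeR 4.0.16 (quasi-likelihood, sex as covariate, Benjamini-Hochberg over all genes, threshold 0.05). The code was checked on simulated counts. SE is the estimate over the root of F. Scaling factors ran from 0.923 to 1.07 in muscle, 0.531 to 1.14 in cerebrum and 0.314 to 1.36 in liver. Alternatives were DESeq2 1.42.0, its size factors, total counts alone, other filters, no sex covariate, a fetus block and each fetus left out. Ratios used raw counts plus 0.5, log2 CPM a prior count of 1, correlations 100000 permutations (scipy 1.17.1). Libraries of 1 number come from 1 fetus and are therefore paired across tissues. Their deviations from group means correlated at −0.228 to 0.335 over genes. No lane or batch was labelled per library.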

Additional observations from a re-analysis of the deposited data

Results flagged for a closer look

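Among the 40 groups of 7 libraries examined (each member kept in a tissue, within a diet), 4 held a library whose gap to its nearest neighbour on the log2 CPM scale exceeded 0.568 of the group's range. Chance flags about 1 in 20 groups.

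In the cerebrum of CON 23, MYL6B stood at a log2 CPM of 8.53, where the next CON library had 6.39. In the cerebrum of CON 2, MYL9 stood at −1.21 (1 count), where the next had 1.13. In the liver of CON 2, MYL12B stood at 4.07, where the next had 4.49. In the muscle of CON 73, the library with the high neuronal markers, MYL12B stood at 5.98, where the next had 5.63. The cerebrum library of RES 1 was not among them for any of the 6 members kept there. No member differed between tissues in its diet effect beyond the threshold.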

How the results depend on the processing

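No member was called between diets in any tissue under DESeq2 (which gave no adjusted p to MYL4 in cerebrum and MYL7 in muscle), DESeq2 size factors, scaling by total counts alone (added after seeing the data), no sex covariate, no filter, the stricter filter or any fetus left out, and the diet-by-tissue count was likewise 0 under its alternatives. The sign of a diet estimate turned without CON 23 for MYL6B in cerebrum (range over the fetuses left out −0.68 to 0.21), without RES 33 for MYL7 in liver (−0.16 to 1.40) and without RES 1 for MYL12B in muscle (−0.010 to 0.11), and with total counts alone for MYL6B in liver (−0.19), and the cause was not tested. Tissue calls were 9, 8 and 7 members (muscle against cerebrum, muscle against liver, cerebrum against liver). With the fetus as a replicate block they were again 9, 8 and 7, and the block changed no other call. With total counts alone they were 9, 9 and 8, with MYL4 at 0.72 between cerebrum and liver, where the median of all genes moved by 1.03. The stricter filter left 3, 2 and 3, since it removes genes that are low in 2 of the 3 tissues. Without the cerebrum library of RES 1, an alternative added after seeing the data, they were 9, 8 and 5, with MYL3 at −0.67 between cerebrum and liver. Leaving out 1 fetus gave RES minus CON differences of 0.14 to 0.32 for log2 MYL3/MYL1, −0.20 to −0.14 for MYL2/MYLPF, 0.07 to 0.20 for MYL4/MYL1 and 0.21 to 0.45 for MYL9/MYL12B. Male fetuses alone gave −0.21 for MYL2/MYLPF (exact permutation p = 0.0303, adjusted p = 0.121). Correlated pairs numbered 33 of 36, 33 after the variance stabilizing transformation, and 28 after removing diet and sex means or the 2 farthest libraries, and 36 without the muscle library CON 73, added after seeing the data. Low counts limit MYL1, MYLPF, MYL2, MYL3 and MYL7 outside muscle.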

Other observations

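TBX5, known as a heart and forelimb factor, was found at 6.11 to 37.5 CPM (37 to 270 counts) in all 14 libraries labelled as left hind limb muscle, with RES 70 highest, and at no more than 0.43 CPM in cerebrum and 0.144 CPM in liver.

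The smooth muscle and pericyte markers summed to 887 CPM in RES 70, close to the 888 CPM of RES 1, although the 6 striated light chains of these fetuses summed to 693 and 5488 CPM. MYL9 in RES 70 was at 107 CPM, near the CON median of 108 CPM, and ACTA2 there at 232 CPM lay within the CON range.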
